A study of Mus musculus with 5 samples.

Results

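The genes described here encode the mouse receptors for the constant part of antibodies of the IgG class, Fcgr1, Fcgr2b, Fcgr3 and Fcgr4, and the signalling chain Fcer1g. They were selected on the family name and looked up by symbol among 18044 genes, where all 5 were found. The family was also chosen by the levels of these genes in these same libraries, which were already known, so the levels below are a description and not a test. The cells came from the pelvis-kidney junction, where the renal pelvis meets the kidney, of wild-type C57BL/6 mouse embryos at stage E18.5. Junctions of all embryos were combined and digested with collagenase, and the cells were labelled with a primary antibody to the cation channel HCN3, then a secondary antibody, and sorted by flow cytometry. The groups are 2 libraries labelled HCN3-positive, which the labels call urinary tract pacemaker cells, and 3 labelled HCN3-negative, and strain, stage, dissection and staining were the same in both. No label says that the libraries of a group came from separate pools of embryos, so any p-value reflects the scatter of these 5 samples alone, and that scatter may be technical.

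Fc receptors let cells of the immune system bind antibody-coated particles. Fcgr1 is the high-affinity IgG receptor, and Fcgr3 and Fcgr4 are activating receptors of lower affinity. These activating receptors reach the cell surface and signal together with the Fcer1g chain, whose immunoreceptor tyrosine-based activation motif (ITAM) recruits the kinase SYK. Fcgr2b carries an inhibitory motif of the same kind (ITIM) and recruits the phosphatase SHIP1, the product of Inpp5d. Macrophages are known to express the whole set, while B cells use Fcgr2b as their Fc gamma receptor.

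The labels do not divide the libraries as the authors' deposited table does, and this was seen in the Fc receptor genes as in the table as a whole. The deposited fold could be rebuilt in 100% of rows (relative tolerance 0.01) as a ratio of 2 means. The numerator averages HCN3-negative 1, HCN3-negative 3 and HCN3-positive 2, and the denominator HCN3-negative 2 and HCN3-positive 1. The pair HCN3-positive 1 and HCN3-negative 2 is called the first set below, and the other 3 libraries the second set. The name of the deposited table sets HCN3-negative against HCN3-positive, but its headers do not say which libraries formed either side. The reason why the sets differ from the labels was not tested, and libraries keep their labels here. Gene reads numbered 24588864 to 39034478 per library. Hcn3, the transcript of the sorted protein, was at 0 in HCN3-positive 1 and 44.5 in HCN3-positive 2, and at 103, 32.2 and 41.9 in HCN3-negative 1, 2 and 3, so it did not follow the labels. These are normalized counts, meaning reads divided by a size factor of the library.

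Of the 5 genes, 4 lie within 276 kb of chromosome 1 in the mouse genome build mm10 (GRCm38). From low to high coordinate these are Fcgr2b (170958617 to 170976547, minus strand), Fcgr4 (171018920 to 171029761, plus strand), Fcgr3 (171051174 to 171064935, minus strand) and Fcer1g (171229572 to 171234365, minus strand). Fcgr1 lies on chromosome 3 (96282909 to 96293969, minus strand). The 150 bases before a RefSeq transcript start of each gene are shown because the 5 genes took the same side in every library, although they start on 2 chromosomes and both strands. These starts are not the outer ends of the GENCODE loci given above: the windows of Fcgr2b and Fcgr3 lie inside those loci, those of Fcgr4 and Fcer1g overlap their edges, and that of Fcgr1 lies just outside. The sequences come from RefSeq (GRCm38.p6), run 5′ to 3′ on the gene's strand, and span chr3:96293970-96294119 (minus strand) for Fcgr1, chr1:171059404-171059553 (minus) for Fcgr3, chr1:171018776-171018925 (plus) for Fcgr4, chr1:170976072-170976221 (minus) for Fcgr2b and chr1:171234350-171234499 (minus) for Fcer1g. Capitals mark GAGGAAG or GGGGAAG, or the same letters read on the other strand, CTTCCTC and CTTCCCC. These are forms of the purine-rich box bound by PU.1, the myeloid transcription factor encoded by Spi1.
Fcgr1: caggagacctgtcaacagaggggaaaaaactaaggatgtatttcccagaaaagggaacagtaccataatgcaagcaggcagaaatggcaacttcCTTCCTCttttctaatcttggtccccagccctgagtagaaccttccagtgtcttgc
Fcgr3: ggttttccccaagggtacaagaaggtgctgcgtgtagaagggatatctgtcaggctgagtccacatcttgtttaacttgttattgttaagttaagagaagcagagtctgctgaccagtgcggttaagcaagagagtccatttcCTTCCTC
Fcgr4: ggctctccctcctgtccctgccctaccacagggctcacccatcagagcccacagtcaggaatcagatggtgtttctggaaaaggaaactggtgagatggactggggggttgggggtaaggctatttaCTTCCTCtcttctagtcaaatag
Fcgr2b: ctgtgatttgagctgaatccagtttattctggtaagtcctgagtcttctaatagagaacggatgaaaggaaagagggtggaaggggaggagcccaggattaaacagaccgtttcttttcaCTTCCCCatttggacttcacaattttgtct
Fcer1g: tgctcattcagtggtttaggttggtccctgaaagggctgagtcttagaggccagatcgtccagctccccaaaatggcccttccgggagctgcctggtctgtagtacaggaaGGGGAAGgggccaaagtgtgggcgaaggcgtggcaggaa

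The activating receptors Fcgr1, Fcgr3 and Fcgr4 held GAGGAAG, which starts 56, 7 and 23 bases before that start. The inhibitory Fcgr2b and the chain Fcer1g held GGGGAAG instead, 30 and 39 bases before the start. A second annotated start of Fcgr3 puts its match at 16 bases. Of all 32851 RefSeq windows of this length, 6.85% held GAGGAAG, 5.36% held GGGGAAG and 11.7% held at least one of them on either strand. Both forms were chosen after the 5 sequences had been seen, so their presence in all 5 is a description. Fcgr1 also held TTCNNNGAA, the spaced box bound by STAT factors, which occurred in 4.09% of windows and in no other of the 5. TATAAA occurred in none of the 5 and in 7.57% of windows. A match of letters is no evidence of binding.

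Fcgr1 had the largest difference between the 2 sets of any gene tested, by mean log2(normalized count + 1). Its normalized counts were 9804 in HCN3-positive 1 and 11483 in HCN3-negative 2, against 2.23 in HCN3-positive 2 and 0 in both HCN3-negative 1 and HCN3-negative 3. The second set held 3 Fcgr1 reads in all, beside 17302 in the first set. Scaled by the size factors, Fcgr1 was 12697-fold higher in the first set, with an exact 95% interval of 4344 to 61574 for counting error only. In the authors' deposited table Fcgr1 has the smallest adjusted p of all genes, at rank 1.

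Fcgr3 was the most abundant of the receptors themselves. Its normalized counts were 13614 in HCN3-positive 1 and 17574 in HCN3-negative 2, and 23.0, 17.8 and 49.3 in HCN3-positive 2, HCN3-negative 1 and HCN3-negative 3. Fcgr4, which binds mouse IgG2 subclasses, stood at 4280 and 4473 in the same pair of libraries and at 1.48, 0 and 5.58 in the other 3. For both genes each library of the first set was far above each library of the second, with no overlap. Among all genes tested, 23.5% had every library of the first set above every library of the second, and 26.1% the reverse. The ratio of scaled reads between the sets was 540 for Fcgr3 (95% counting interval 445 to 661) and 1944 for Fcgr4 (986 to 4506).

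The inhibitory receptor Fcgr2b had normalized counts of 5827 in HCN3-positive 1 and 6893 in HCN3-negative 2. In the second set it stood at 41.5 in HCN3-positive 2, 0 in HCN3-negative 1 and 11.2 in HCN3-negative 3, so 56 of its 68 reads there came from 1 library. Its scaled reads were 335-fold higher in the first set (264 to 432), and 1176-fold higher when HCN3-positive 2 was left out. Fcer1g, the shared ITAM chain, had the highest counts in every library: 31278 and 36702 in the first set, and 74.9, 108 and 180 in HCN3-positive 2, HCN3-negative 1 and HCN3-negative 3. Its ratio was 293 (266 to 324).

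**Figure D1:**
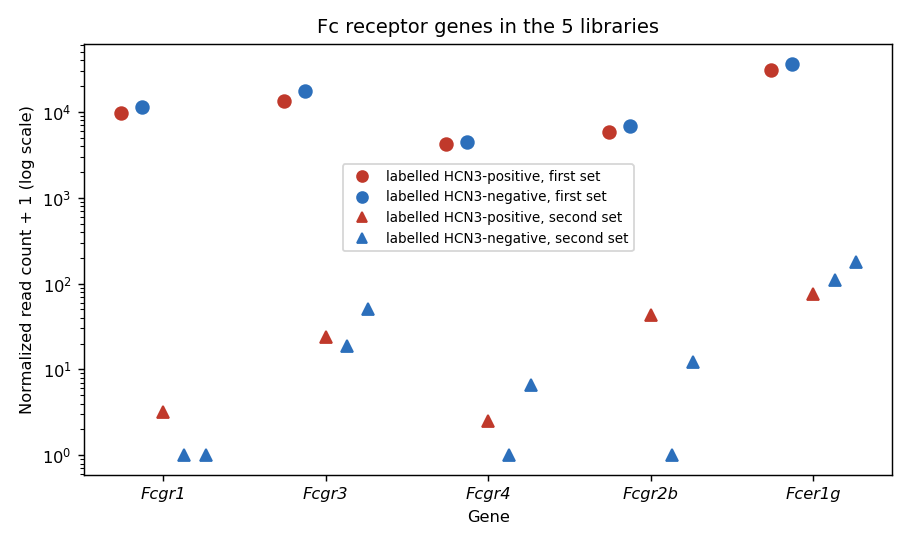
Normalized read count plus 1 (vertical axis, log scale) of the 5 Fc receptor genes (horizontal axis), by library. Each point is 1 library, coloured by label and shaped by its set in the authors' table; the lowest value in HCN3-positive 1 and HCN3-negative 2 is 4280 (Fcgr4) and the highest in the other 3 libraries is 180 (Fcer1g).

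These values divided the libraries by set and not by label. No gene of the 5 had all libraries of one label above all of the other, a pattern found in 5.34% of genes tested (labelled positive higher) and 5.44% (lower). By label, the log2 fold change of positive over negative on the log2(normalized count + 1) scale was 2.98 (SE 5.51) for Fcgr1, 1.16 (SE 3.98) for Fcgr3, 1.74 (SE 4.75) for Fcgr4, 3.51 (SE 4.25) for Fcgr2b and 0.78 (SE 3.59) for Fcer1g. The adjusted p in limma was 1.00 for each. The spread within a label was larger than the difference: the mean of Fcer1g was 15676 ± 22064 (SD, n = 2) under the positive label and 12329.8 ± 21107 (SD, n = 3) under the negative. Of 16579 genes averaging 5 or more, limma called 0 higher and 0 lower by label (0% in each direction) at an adjusted p of 0.05, with 157 at an unadjusted p under 0.05. Unadjusted limma p-values of the 5 genes ran from 0.445 to 0.836. On the recovered reads edgeR called 0 genes (165 unadjusted) and limma-voom 0 (108), while DESeq2 called 10, of which none was an Fc receptor gene. DESeq2 gave no adjusted p for these 5. Fold changes from the count models were smaller, from 0.16 (Fcgr3) to 0.47 (Fcgr4) in edgeR and from 0.21 to 0.52 in DESeq2 on the log2 scale.

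Which way the labels pointed depended on single libraries. Without HCN3-positive 1 all 5 genes had a negative log2 fold change, -2.81 for Fcgr1, -3.41 for Fcgr3, -3.64 for Fcgr4, -0.04 for Fcgr2b and -3.56 for Fcer1g. Without HCN3-positive 2 the values ran from 5.12 for Fcer1g to 8.76 for Fcgr1. Leaving out HCN3-negative 2 also raised the fold, to 3.46 for Fcer1g and 7.47 for Fcgr1. Without HCN3-negative 1 Fcgr3, Fcgr4 and Fcer1g turned to -0.72, -0.73 and -0.74, and without HCN3-negative 3 Fcgr3 turned to -0.01 and Fcer1g to -0.37. No adjusted p passed in any of these fits, the lowest for these genes being 0.694 in limma.

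**Figure D2:**
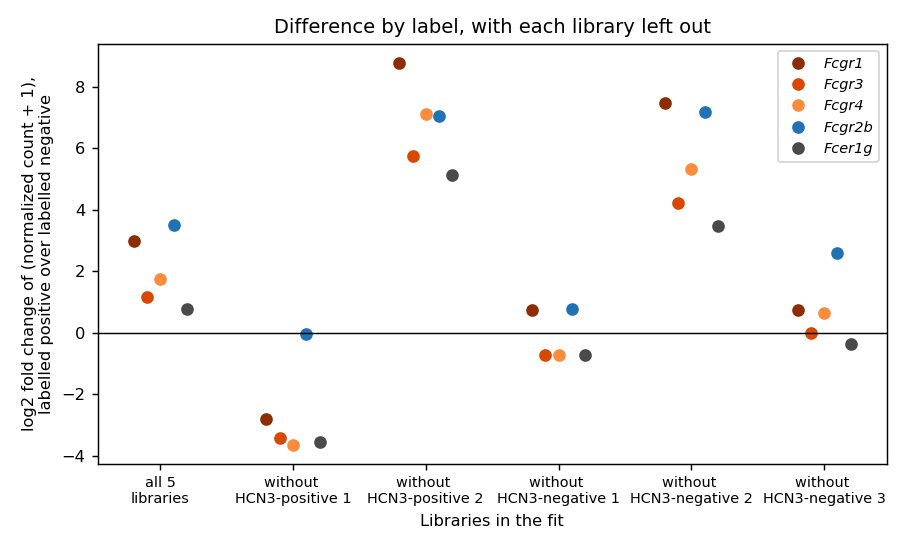
Log2 fold change of each Fc receptor gene by label (vertical axis, positive over negative label) in the fit of all 5 libraries and in fits that leave out 1 library each (horizontal axis). Points are single genes; all 5 lie above 0 with all libraries and below 0 without HCN3-positive 1.

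In the authors' deposited table all 5 genes have an adjusted p under 0.05 and are higher in the first set, as do 8.1% of the 18044 genes, with 6.09% higher in the second set. The genes were chosen with that contrast known, so nothing is read from this count. On the log2(normalized count + 1) scale the mean difference between the sets was 12.81 for Fcgr1, 10.75 for Fcgr4, 9.62 for Fcgr2b, 9.09 for Fcgr3 and 8.21 for Fcer1g. Among 16579 genes these differences ranked 1, 20, 45, 74 and 124 from the top. All 5 genes passed the filter on low values. Fcgr1 and Fcgr4, with means of 0.742 and 2.35 in the second set, passed it through the first set alone, whereas Fcgr2b, Fcgr3 and Fcer1g had second-set means of 17.6, 30.0 and 121. In bulk RNA, fewer cells of a type and less RNA per cell cannot be told apart.

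Within the first set the 2 libraries were close to each other. The ratio of HCN3-negative 2 to HCN3-positive 1 ran from 1.05 for Fcgr4 to 1.29 for Fcgr3, beside a median of 0.992 over all genes averaging at least 10 in that set. The make-up of the family was also nearly equal: Fcer1g took 48.3% and 47.6% of the reads of the 5 genes, Fcgr3 21.0% and 22.8%, Fcgr1 15.1% and 14.9%, Fcgr2b 8.99% and 8.94%, and Fcgr4 6.60% and 5.80%. The family held 1870 RPM of all gene reads in HCN3-positive 1 and 2157 RPM in HCN3-negative 2. It held 4.94, 4.31 and 7.90 RPM in HCN3-positive 2, HCN3-negative 1 and HCN3-negative 3.

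In the second set the make-up was different and uneven. Fcgr1 took 3 of 193 reads in HCN3-positive 2 and 0 of 141 and 0 of 264 in HCN3-negative 1 and HCN3-negative 3. Fcer1g took 52.3%, 85.8% and 73.1% in the same order. Fcgr2b made up 60.9% of the reads of the 4 receptors in HCN3-positive 2 (56 of 92, exact 95% binomial interval 50.1% to 70.9%), against 17.4% (16.9% to 17.9%) in HCN3-positive 1 and 17.1% (16.7% to 17.4%) in HCN3-negative 2. In HCN3-negative 3 it was 16.9% (12 of 71, 9.05% to 27.7%), close to the first set, and in HCN3-negative 1 it was 0 of 20 reads, with an exact interval up to 16.8% (3 reads would be 15.0%). The inhibitory share in HCN3-positive 2 thus lay outside the intervals of the other 4 libraries, a comparison of single libraries that covers counting error only.

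**Figure D3:**
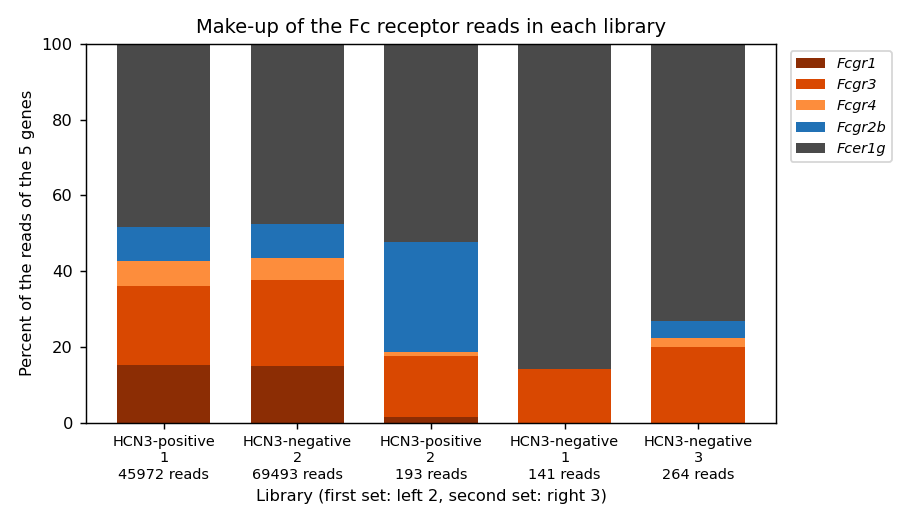
Percent of the reads of the 5 Fc receptor genes (vertical axis, stacked bars) taken by each gene in each library (horizontal axis, with the number of reads). The 2 libraries of the first set have nearly the same make-up, whereas Fcgr1 takes at most 1.55% in the second set and Fcgr2b 29.0% in HCN3-positive 2.

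The reads of Fcgr2b and Fcgr3 can be confused in part, since their transcripts share identical stretches of up to 129 bases. Of all 50-base words of the longest coding transcript, 12.8% of those of Fcgr3 and 4.96% of those of Fcgr2b occur in the other gene. Over all other genes of the GENCODE M21 annotation the share was 8.60% for Fcgr2b, so part of it lies outside Fcgr3. Fcgr3 shared words with Fcgr2b only. Fcgr1, Fcgr4 and Fcer1g shared none with any other gene of that annotation. Leaving Fcgr3 out of the sum gave an Fcgr2b share of 91.8% in HCN3-positive 2, 66.7% in HCN3-negative 3, 29.3% in HCN3-positive 1 and 30.2% in HCN3-negative 2. An antisense gene, Gm38204, overlaps Fcgr2b, and the library chemistry is not stated to keep strand.

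Levels were compared between the 5 genes per kilobase of transcript, as the mean normalized count of the first set divided by transcript length. Fcer1g came first, at 49765 per kb by its longest and 50430 by its shortest coding transcript, and Fcgr3 next, at 11577 and 11778. Fcgr1 had 4111 and Fcgr4 3484 per kb. The place of Fcgr2b could not be set, since its coding transcripts run from 1084 to 3544 bases, which gives 1795 to 5867 per kb. The SD over the 2 libraries was 1188 normalized counts for Fcgr1 around a mean of 10644 and 137 for Fcgr4 around 4376.

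The level left in the second set was not the same share for each gene. As a percent of the first set it was 0.341% for Fcer1g (0.309% to 0.376%), 0.299% for Fcgr2b (0.232% to 0.379%), 0.185% for Fcgr3 (0.151% to 0.225%), 0.0514% for Fcgr4 (0.0222% to 0.101%) and 0.00788% for Fcgr1 (0.00162% to 0.0230%). These intervals cover counting error only, and the 3 libraries differed more: relative to the first-set mean, HCN3-positive 2, HCN3-negative 1 and HCN3-negative 3 held 0.220%, 0.317% and 0.528% for Fcer1g, 0.147%, 0.114% and 0.316% for Fcgr3, and 0.653%, 0% and 0.176% for Fcgr2b. The order of the genes depended on single libraries. Without HCN3-positive 2, Fcgr2b was at 0.0850%, below Fcgr3 at 0.210%, and Fcgr1 had 0 reads, while without HCN3-negative 3 Fcgr4 was at 0.0185%. Macrophage markers spanned a wider range. Of 17 such genes the median was 0.175%, with 0.387% for Csf1r, the receptor for the macrophage growth factor CSF1, and 0.0289% for C1qb, a complement chain. Timd4, a receptor of resident macrophages, had 0 reads in the second set and 3004 in the first. Mertk, a receptor for dying cells that other cell types also express, stood at 51.3%.

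**Figure D4:**
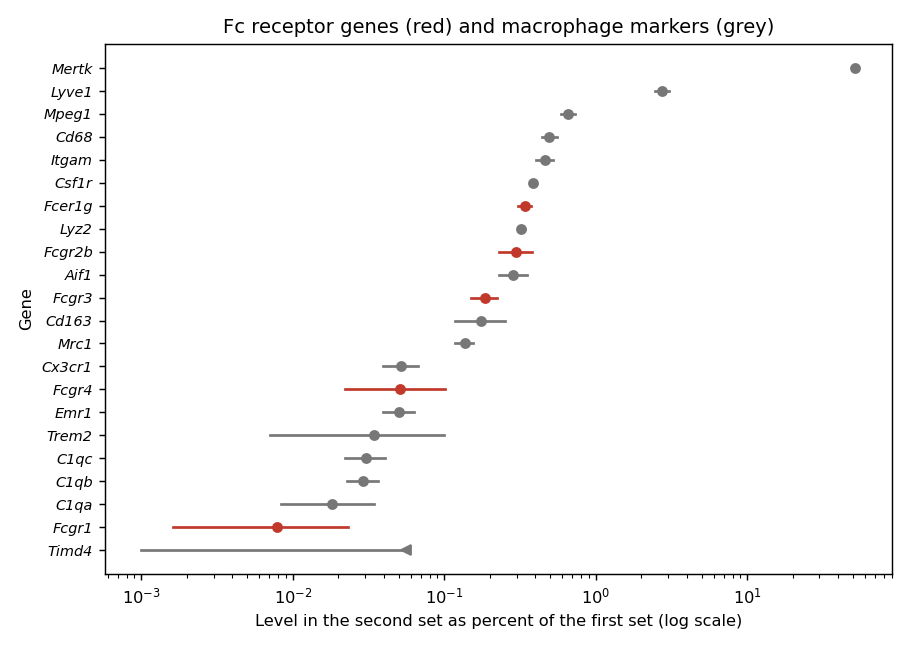
Level in the second set as a percent of the first set (horizontal axis, log scale) for the 5 Fc receptor genes (red) and 17 macrophage markers (grey), from scaled reads summed over the libraries of each set. Lines are exact 95% intervals for counting error, and the arrowhead for Timd4 is an upper limit; Fcgr1 lies at 0.00788% and Fcer1g at 0.341%.

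The defining markers of macrophages were present in the libraries where the Fc receptor genes were high. The summed normalized count of the 17 markers was 504239 in HCN3-positive 1 and 617814 in HCN3-negative 2, and 2536 to 7915 in the second set, where 1 or 2 of the 17 were at 0 in each library. Between the sets 16 of the 17 passed as higher in the first set in limma, with a median log2 difference of 8.89. Over all genes tested the median was -0.07 and 10.6% were called higher. The filter on low values used the mean of all 5 libraries, so C1qa, Timd4 and Trem2 passed it through the first set alone. Per 100 reads of the 17 markers, Fcer1g had 6.20 and 5.94 reads in the first set. It had 2.95, 3.63 and 2.27 in HCN3-positive 2, HCN3-negative 1 and HCN3-negative 3. This order turned with the choice of markers, because Mertk gave 1753, 1980 and 6520 of the 3419, 3336 and 8509 marker reads in those 3 libraries. With Mertk left out, a choice made after seeing the data, Fcer1g had 6.26 and 6.00 in the first set and 6.06, 8.92 and 9.70 in the second. Fcgr1 had 1.96 and 1.88 in the first set and 0.180, 0 and 0 in the second on that scale, and 0.0877, 0 and 0 with all 17 markers. Fcgr2b had 1.17 and 1.13 in the first set and was uneven in the second, at 3.36 in HCN3-positive 2, 0 in HCN3-negative 1 and 0.603 in HCN3-negative 3 (1.64, 0 and 0.141 with all 17 markers). The part of macrophage number in these differences was not tested.

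Marker lists of other cells gave mixed counts. Of 10 monocyte and neutrophil genes tested, 7 passed as higher in the first set in limma, beside 10.6% of all genes tested. Their summed level was 108775 in HCN3-positive 1, 33560 in HCN3-negative 2 and 1326 to 2188 in the second set. S100a8, which encodes a calcium-binding protein of neutrophils, was at 20708 and 2460.5 in the first set. None of 7 mast cell and basophil genes tested passed, with adjusted limma p-values from 0.384 (Cpa3) to 0.840 (Mcpt4). Of 9 B cell genes 2 passed as higher (Cd79b and Cd22) and 1 as lower (Ebf1). Of 8 dendritic cell genes 3 passed as higher (Itgax, Cd209a and Siglech) and 2 as lower (Zbtb46 and Ccr7). Of 9 T and NK cell genes none passed as higher and 2 as lower (Gzma and Cd3g). Elane, of the monocyte and neutrophil list, and Cd209a passed the filter on low values through the first set alone. Gzma, Cd3g and Ccr7 passed it through the second set alone. Lower in the first set in limma were 8 of 8 smooth muscle genes and 8 of 8 genes of fibroblasts and stroma. So were 8 of 9 endothelial and 5 of 5 podocyte genes, beside 9.88% of all genes tested. Lmod1, of the smooth muscle list, passed the filter on low values through the second set alone, with 2.82 and 6.66 in the first set. In the authors' deposited table, 6 smooth muscle, 8 fibroblast and stroma, 1 endothelial and 0 podocyte genes passed as higher in the second set. That share was 6.09% over all genes. The summed podocyte level was 265610 in HCN3-negative 3, against 32893 in HCN3-positive 2 and 44155 in HCN3-negative 1. The part of these cell types in the Fc receptor levels was not tested.

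Other members of the wider Fc receptor family did not all follow. Of 14 listed genes 13 were in the table, 9 were tested between the sets, and 4 passed as higher in the first set in limma. Over all genes tested, 10.6% passed as higher. This list and those that follow were chosen with earlier results of these data known, so their counts are a description. Fcrls passed the filter on low values through the first set alone. Fcrls, an Fc receptor-like scavenger receptor of macrophages and microglia, had normalized counts of 11206 and 27637 in the first set and 5.19, 0.891 and 0.930 in the second (log2 difference 12.60, SE 0.81, adjusted p = 0.000385). Fcrl1, best known from B cells, had 1276 and 1317, and 16.3, 2.67 and 0 in the second set (8.34, SE 1.24, adjusted p = 0.00508). Fcgrt, the neonatal receptor that rescues IgG from breakdown, was less uneven, with 11531 and 23731 against 3151, 3933 and 3188 (2.28, SE 0.31, adjusted p = 0.00379). Trim21, the antibody receptor of the cytosol, had 2557 and 2627 against 342, 391 and 598 (2.59, SE 0.32, adjusted p = 0.00257).

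The remaining family members were low or did not pass. Fcrl5 had normalized counts of 64.8 and 11.1 against 0.742, 0 and 0.930 (limma across all genes, adjusted p = 0.0508). Fcrlb stood at 21.1 and 30.0 against 6.68, 0 and 0 (adjusted p = 0.0943), and Fcrla was at 0 in HCN3-negative 1 and highest, at 32.6, in HCN3-negative 3. Fcer2a, the low-affinity IgE receptor, lay between 3.56 and 25.4 in all libraries. Of the high-affinity IgE receptor, which mast cells build with the same Fcer1g chain, the ligand-binding chain Fcer1a had 7.77 in HCN3-negative 2 and 0 elsewhere, and the beta chain Ms4a2 had 282 and 114 against 269, 281 and 56.7. Pigr, Fcrl6 and the IgM receptor Faim3 did not reach the filter, the highest value being 10.2, for Faim3 in HCN3-negative 3. By label 0 of the 9 tested genes passed limma, with a median log2 fold change of 1.17.

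Receptors that borrow the Fcer1g chain for signalling followed it in most cases. Of 10 listed, 9 were tested and 6 passed as higher in the first set in limma, beside 10.6% of all genes tested. The median log2 difference was 7.74 over the 9. Clec4n, Clec4e, Clec4d, Pira6 and Lilra5 passed the filter on low values through the first set alone. Clec4n (Dectin-2), a C-type lectin for fungal mannans, had 4653 and 5192 against 2.97, 0.891 and 4.65. The other 5 that passed were the lectins Clec4e at 519 and 442 and Clec4d at 629 and 247, the paired receptors Pira2 at 1682 and 550.5 and Pira6 at 1202 and 429.5, and Lilra5 at 736 and 1299.6. In the second set the highest value of these 5 was 12.1, for Pira2 in HCN3-negative 3. Oscar, Ncr1 and Il3ra did not pass, with Ncr1 at 0 in both libraries of the first set.

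Signalling genes downstream of ITAM receptors were mostly higher where the receptors were. Of 31 genes 22 passed as higher and 1 as lower in the first set in limma, with a median log2 difference of 4.07. The shares over all genes tested were 10.6% and 9.88%, with a median of -0.07. Tyrobp, a second ITAM chain of myeloid cells, had 27243 and 24671 against 92.0, 33.9 and 188. The Src-family kinase Lyn had 20211 and 22239.8 against 1231, 1743 and 3209. Prkcd, Nckap1l and the adaptor Lcp2 also passed. Syk, the kinase that docks to the ITAM, was named after its values were seen, with 10485 and 7027 against 739, 274 and 1027 (log2 difference 3.86, SE 0.54, adjusted p = 0.00424). Plcg1, the 1 gene that was lower, had 791 and 1838 against 3360.4, 3868 and 5968, whereas its myeloid relative Plcg2 passed as higher with 9711 and 5798 against 424, 334 and 622. The T cell genes Cd247 and Zap70 did not pass and were at 0 in HCN3-positive 1. Without HCN3-positive 1 the count of genes passing as higher was 11 of 31.

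The inhibitory side moved in the same direction. Of 17 inhibitory phosphatases, adaptors and ITIM receptors 14 passed as higher in the first set in limma and 0 as lower. Over all genes tested the shares were 10.6% and 9.88%. The median log2 difference of the 17 was 5.66. Inpp5d, which encodes the phosphatase that Fcgr2b recruits, had 8204 and 9915 against 373, 380.4 and 1295. Ptpn6 (SHP-1), a phosphatase recruited by many ITIM receptors, had 25870.5 and 22224 against 478, 303 and 471. The ITIM receptors Lilrb4, Cd300a and Pirb passed, and Sirpa, the receptor for CD47, had 56204 and 69608 against 2677, 3110.4 and 8577. The widely expressed relatives Inppl1 and Ptpn11 did not pass, with log2 differences of 0.02 (SE 0.20) and -0.10 (SE 0.21). Without HCN3-positive 1 the count was 9 of 17.

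Genes of phagocytosis and the oxidative burst, the responses that activating Fc receptors set off, passed as higher in 11 of 11 cases in limma. Their median log2 difference was 6.30, and 10.6% of all genes tested passed as higher. Cybb, the catalytic subunit of the phagocyte NADPH oxidase, had 28577 and 25761 against 43.0, 59.7 and 36.3, and its partner Cyba, which other cells also express, had 12293 and 14412 against 2051, 1730.3 and 1970.2. Rac2, Coro1a, Lsp1 and Arpc1b were the other abundant members. The count was 5 without HCN3-positive 1, 7 without HCN3-positive 2 and 6 without HCN3-negative 2. Among 11 myeloid transcription factors 9 passed as higher, beside the same 10.6% of all genes tested. Spi1, which encodes PU.1, had 8355 and 8154 against 43.0, 23.2 and 39.1 (log2 difference 7.88, SE 0.44, adjusted p = 0.000281), and Irf5, Cebpb, Irf8 and Maf also passed. By label 0 genes of any of these lists passed in limma.

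Of 12 listed immunoglobulin genes only the J chain gene Igj was matched in the table, with normalized counts of 8.16 in HCN3-positive 2, 1.86 in HCN3-negative 3 and 0 in the other libraries. Antibody transcripts, the source of the ligand, were otherwise not analysed here.

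**Figure D5:**
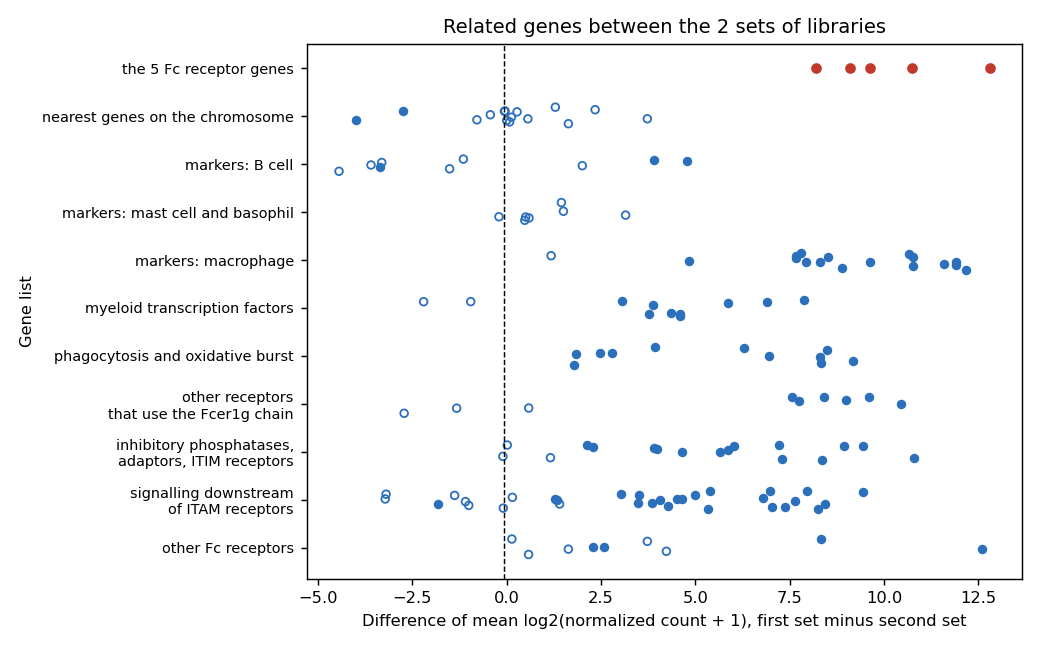
Difference of mean log2(normalized count + 1), first set minus second set (horizontal axis), of the tested genes of each list (rows, 1 point a gene). Filled blue points passed limma at an adjusted p of 0.05, open points did not, red points are the 5 Fc receptor genes, which were not tested, and the dashed line is the median of all genes, -0.07.

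The genes next to the Fc receptor loci were looked at for comparison. The 3 nearest genes of the table on each side of each locus made 18 genes, of which 15 were tested between the sets, 0 passed as higher in the first set in limma and 2 passed as lower. Over all genes the shares were 10.6% and 9.88%, so with 15 genes these counts do not set the neighbours apart from other genes. Their median log2 difference was 0.08, and the lowest adjusted p of a gene with a positive difference was 0.0943, for Fcrlb. At an unadjusted p under 0.05 limma had 2 higher, and the authors' deposited table has 0 higher at an adjusted p of 0.05. Sdhc, which lies between Fcgr3 and Fcer1g, had 2573 and 2454 against 2593, 2601 and 1991. The 2 that passed as lower were the matrix protease gene Adamts4, with 155 and 135 against 676, 975 and 1410.2, and Pcp4l1, with 45.1 and 26.6 against 804, 1216 and 185. On one side of Fcgr1 lie 3 histone genes. Hist2h4 stood at 45.1 and 38.8 against 9.64, 4.45 and 9.30 (log2 difference 2.35, limma adjusted p = 0.118), higher in both libraries of the first set, while Hist2h2bb and Hist2h3b overlapped between the sets.

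The genes whose profile over the 5 libraries was closest to the mean of the family were found by the root mean square difference of log2(normalized count + 1), centred on each gene's mean, among 14479 other genes. Clec4n was nearest (0.26 on the log2 scale), followed by Emr4 (0.41), an adhesion receptor of myeloid cells, and Tlr1 (0.46), a receptor for bacterial lipopeptides. Bcl2a1b (0.46), Clec7a (0.47), the receptor for fungal beta-glucan, and Ctss (0.55), a lysosomal protease, came next. Igsf6, Lilra5, Ptafr, Vnn3, Cx3cr1 and Ms4a4c completed the nearest 12, at 0.60 to 0.65. Of the family itself Fcgr4 (0.55) and Fcgr3 (0.66) lay nearest to this mean, and Fcgr1 (1.47) farthest, with 130 other genes closer than it. Fcgr1 was most like Fcrls (0.35) and Ccl12 (0.39), Fcgr2b most like Abcg3 (0.55), Fcgr3 most like Cd163 (0.31), a macrophage scavenger receptor, and Fcer1g most like Ly86 (0.26). The 5 points fall into 2 sets, so this measure depends largely on the size of the gap between the sets.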

How the data were processed

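RNA of 5 sorted cell samples was measured by sequencing. Libraries were made with a Clontech cDNA kit and Nextera XT, per the labels' protocols. The submitters' processing notes list, without role or order, mm10, TopHat2 2.0.11, HTSeq 0.6.1p2, DESeq 1.18.0, Trim Galore 0.40, cutadapt 1.8, FastQC 0.11.2 and bcl2fastq 2.17. These sources do not give the gene annotation. The authors deposited 1 table whose signal columns hold read counts divided by a size factor, with means, the fold as a ratio, its log2 and p-values of the authors' comparison, per the file headers.

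Whole reads were recovered for 100% of values (tolerance 0.01) with 1 step size per column. The 3 summary rows of the counter stayed out of totals and tests: reads not aligned uniquely made up 13.5% to 18.7% of all reads, reads in no gene 8.58% to 14.0% and ambiguous reads 0.792% to 2.32%. Depth was 24588864 to 39034478 gene reads. A count of 3 reads, the floor used for a gene at 0, equals a normalized count of 2.23 to 4.23. Reads copied by PCR are not independent molecules, so intervals and floors cover counting error only. No pair of libraries agreed within sampling noise (chi-square per gene 98.3 to 743).

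Libraries were grouped by title. In R 4.3.3, log2(normalized count + 1) of the 16579 genes averaging 5 or more was fitted with limma 3.58.1 (trend) and adjusted by Benjamini-Hochberg. Fold changes on this scale understate the change of low genes. The alternatives were edgeR 4.0.16, DESeq2 1.42.0 and limma-voom on recovered reads. Only limma and edgeR were also run on simulated counts, whose spread was fixed and not taken from these libraries. The limma fit with trend also compared the 2 sets of the authors' table for genes outside the family. Members and lists were chosen with earlier results of these data known. Some results are not reported here. Named genes are the 5 members, the other Fc receptors, the 6 most abundant of each list, the 12 nearest profiles and the nearest genes of each locus; others named were chosen after their values were seen. Loci and transcript lengths come from GENCODE M21 (GRCm38), and promoters from RefSeq for 5 of 5 genes.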

Additional observations from a re-analysis of the deposited data

How the results depend on the processing

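The comparison by label called 0 genes with limma under other pseudocounts (0.5 and 5), without a filter on low values, with a minimum mean of 20, with TMM scaling, without each library in turn (lowest 0, highest 0) and with edgeR or limma-voom; DESeq2 called 10, and the cause was not tested. The median log2 fold change of the 5 genes by label was 1.74 and ran from -3.41 to 7.06 when 1 library was left out; it was 0.30 in edgeR, 0.35 in DESeq2 and 1.15 in limma-voom. By gene it ran from -2.81 to 8.76 for Fcgr1, -0.041 to 7.16 for Fcgr2b, -3.41 to 5.74 for Fcgr3, -3.64 to 7.12 for Fcgr4 and -3.56 to 5.12 for Fcer1g.

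The titles number the samples, but nothing says that a number marks a shared pool, so the numbers were not taken to pair them. Same-numbered samples deviated oppositely from their label means (correlations of -0.53 and -0.69). These correlations cannot decide on pairing. After centring, the libraries labelled HCN3-positive mirror each other, and the sign of each correlation follows the sets. With the replicate block, over the 4 libraries that share a number, limma called 0 genes, the median was 0.62, and Fcgr3 (-0.0089) and Fcer1g (-0.37) changed sign.

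Between the sets the median difference was 9.62 and ran from 8.80 to 10.74 when 1 library was left out. Leaving Fcgr3 out of the sum moved the Fcgr2b share to 29.3% in HCN3-positive 1, 91.8% in HCN3-positive 2, 30.2% in HCN3-negative 2 and 66.7% in HCN3-negative 3, because fewer reads enter the sum; HCN3-negative 1 then had no reads. With 1 library left out, chosen after seeing the data, genes passing as higher in the first set numbered 3 to 5 for other Fc receptors, 11 to 22 for ITAM signalling, 9 to 14 for the inhibitory list, 4 to 6 for receptors using Fcer1g, 5 to 11 for phagocytosis and 7 to 8 for transcription factors. Over all genes limma called 1758 higher and 1638 lower, and without HCN3-positive 1 678 and 563. Low counts in the second set, 3 reads in all for Fcgr1 and 8 for Fcgr4, limit every ratio.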
